A study of Drosophila melanogaster with 12 samples.

Results

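RNA-seq was carried out on heads of male Drosophila melanogaster aged 3 days, and the comparison described here set flies with a hairpin RNA against dYEATS2 beside flies with a hairpin RNA against Luciferase. It rests on 6 of the 12 libraries of the study. The 3 libraries labelled dYEATS2-IR come from the genotype nSyb>dYEATS2 IR, and the 3 labelled NTC IR-2 from nSyb>Luciferase IR. All of them carry the nSyb driver, which takes the promoter of the neuronal synaptobrevin gene, so each hairpin is made in neurons while the RNA is that of the whole head. Luciferase is not a fly gene, and its hairpin serves as a control for the presence of a hairpin. The other 6 libraries are 3 of a second control, nSyb>mCherry IR (NTC IR-1), and 3 of nSyb>dENL/AF9 IR, and they are used only for the estimate of spread and for values set side by side. Each replicate is a pool of 50 heads, and the labels do not say whether the pools of a group came from separate crosses, so p-values measure the spread between these pools. The members of the comparison were taken by the column names of the raw counts.

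The dYEATS2 protein carries a YEATS domain, a fold that binds acylated lysines of histone tails. In flies dYEATS2 is the gene D12, and its product belongs to the ATAC complex, a histone acetyltransferase built around Gcn5 and Ada2a. A hairpin RNA is cut into small interfering RNAs that direct the degradation of the matching transcript. In a head, neurons, photoreceptors among them, lie beside pigment cells, glia, fat body, muscle, hemocytes and cuticle, which the nSyb driver is not made to reach. In whole-head RNA, fewer cells of a type and less RNA per cell cannot be told apart.

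Total counts were 31418765, 30298251 and 30868441 in the libraries labelled dYEATS2-IR and 33955918, 33722953 and 53217847 in those labelled NTC IR-2. The large mitochondrial ribosomal RNA, mt:lrRNA, took 14.8% to 17.9% of the counts in dYEATS2-IR and 19.4% to 32.3% in NTC IR-2. Rows of nuclear ribosomal RNA took 0.267% to 0.859% in dYEATS2-IR and 0.0372% to 0.109% in NTC IR-2. In the authors' normalized table these libraries stand under different names. There the libraries labelled dYEATS2-IR here are NTC IR-2, and those labelled NTC IR-2 here are NTC IR-1. Which of the names hold could not be decided from the files, and every direction below belongs to libraries as labelled in the count table. The titles of the NTC IR-2 and dENL/AF9-IR libraries carry the word young and the others do not, and the labels name no batch. Levels are CPM, counts scaled to the library's total as adjusted by TMM.

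The targeted gene was examined first. D12 (FBgn0027490, 2L 8434058 to 8437365, minus strand, BDGP6.54) had 9.05, 8.51 and 8.92 CPM in the libraries labelled dYEATS2-IR, against 6.90, 8.60 and 7.73 CPM in those labelled NTC IR-2. The groups overlapped, and D12 was not lower in the libraries labelled as its knockdown. Its log2 fold change was 0.19 (SE 0.139, FDR 0.431, where FDR is the Benjamini-Hochberg adjusted p of edgeR's quasi-likelihood test over all rows). D12 transcripts of neurons and of the other cells of the head are counted together in these libraries. The related gene ear (dENL/AF9, another YEATS domain gene) had 40.1, 36.7 and 36.01 CPM in dYEATS2-IR and 34.99, 49.7 and 41.3 CPM in NTC IR-2 (log2 fold change -0.16, FDR 0.439).

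The other subunits of the ATAC complex did not pass the test either. Of the 12 members measured, D12 included, 0 were called in either direction, and their median log2 fold change was -0.03. The acetyltransferase Gcn5 had a log2 fold change of 0.27 (FDR 0.419) and its adaptor Ada2a one of -0.13 (FDR 0.555). Ada3, a subunit of the acetyltransferase module, came nearest to the threshold with 22.4, 22.7 and 24.5 CPM in dYEATS2-IR against 20.2, 20.0 and 17.8 CPM in NTC IR-2 (log2 fold change 0.26, FDR 0.0797). Atac1, Atac2, Atac3, wds, Hcf, NC2beta, Sgf29 and Chrac-14 had log2 fold changes of -0.70 to 0.28, with FDR of 0.159 or more. Chrac-14, a histone-fold protein encoded next to D12, had the lowest of these values, on 2.67, 2.48 and 2.41 CPM in dYEATS2-IR and 4.80, 3.39 and 4.06 CPM in NTC IR-2.

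Across all 12661 rows tested, 1161 (9.17%) were called at an FDR below 0.05. Of these, 488 (3.85%) were higher and 673 (5.32%) lower in dYEATS2-IR than in NTC IR-2. The median log2 fold change over all rows was 0.01. Among the 11467 rows that are not transposable element insertions, 982 (8.56%) were called, and 458 (3.99%) rose and 524 (4.57%) fell. Changes of at least 2-fold were called in 379 rows (2.99%), of which 183 (1.45%) rose and 196 (1.55%) fell. The libraries of both groups did not overlap in 3737 rows (29.5%), and 1157 of the 1161 called rows were among them. Set side by side, the dYEATS2-IR libraries had 604 called rows (4.77%) against NTC IR-1, 307 higher (2.42%) and 297 lower (2.35%). Between the controls 2467 rows (19.5%) passed, and NTC IR-2 was higher than NTC IR-1 in 1307 (10.3%) and lower in 1160 (9.16%). These contrasts share libraries. The number of calls leaned on single libraries: 331 rows were called without dYEATS2-IR replicate 1, 364 without dYEATS2-IR replicate 3 and 599 without NTC IR-2 replicate 2, while 1376 were called without NTC IR-2 replicate 1. Of 199 called genes and insertions examined singly, 71 were called in all 6 leave-one-out fits, each made without 1 of the 6 libraries. That 0 of the 199 changed direction is no test of stability. Nearly all called rows had no overlap between the groups, so leaving out 1 library could hardly turn the direction.

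Most of the 12 largest rises were in rows with few or no counts in NTC IR-2, and w was the exception. mthl8 (FBgn0052475, 3L 22428 to 26308), a receptor of the methuselah-like family, had 39.8, 45.6 and 51.2 CPM in dYEATS2-IR, and no count in any NTC IR-2 or NTC IR-1 library. With the floor of 3 counts over the 3 NTC IR-2 libraries it was at least 1707-fold higher (FDR 8.6e-05). The other 10 of the 11 methuselah-like genes tested were not called. The eye pigment gene w (FBgn0003996, X 2790599 to 2796466), which encodes an ABC transporter of pigment precursors and is a usual marker gene of fly transgenes, had 3215, 3710 and 4312 CPM in dYEATS2-IR against 36.3, 33.3 and 31.1 CPM in NTC IR-2. Its log2 fold change was 6.80 (SE 0.146, FDR 3.1e-10), and whether the reads come from the w locus or from a marker was not tested. asRNA:CR45822 (3L 7355717 to 7356598), which overlaps CTCF on the other strand, had 3.87, 4.12 and 8.86 CPM in dYEATS2-IR and no count in NTC IR-2, at least 211-fold higher (FDR 0.0106). CG3397 (3R 11983098 to 11984541) was at least 58.8-fold higher on 2.14, 0.774 and 1.80 CPM in dYEATS2-IR, and its call was lost without dYEATS2-IR replicate 1 or 3 (highest FDR 0.0636).

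The remaining large rises were in genes with few counts in NTC IR-2. CG43182 had 1.88, 3.25 and 3.65 CPM in dYEATS2-IR against 2 counts in all of NTC IR-2, a ratio of 165 with a 95% counting interval of 45.2 to 1366. asRNA:CR45835, antisense to Sec63, had 5.16, 7.92 and 7.35 CPM in dYEATS2-IR against 0.0686, 0.153 and 0.0989 CPM in NTC IR-2 (log2 fold change 5.95, FDR 7.1e-05). Sec63 itself, a component of the protein import channel of the endoplasmic reticulum, rose by 0.63 on the log2 scale (FDR 0.0176), a call lost in 3 of the 6 leave-one-out fits. Whether strand was used in the counting is not given in the sources used here, so reads of an antisense pair may be shared. CG46317 had 15.9, 6.87 and 6.09 CPM in dYEATS2-IR and 0.206, 0.427 and 0.119 CPM in NTC IR-2, but 5.81, 21.9 and 13.1 CPM in NTC IR-1. CG33340 and CG18628 were also present in NTC IR-1. They had log2 fold changes of 4.34 and 4.33 against NTC IR-2, and neither was called against NTC IR-1 (FDR 0.556 and 0.182). In CG18628 the dYEATS2-IR libraries themselves differed, at 17.8, 16.9 and 0.841 CPM. The row 18SrRNA-Psi:CR45861 also ranked among the 12 largest rises, with 0.967, 125 and 1.96 CPM in dYEATS2-IR against 0.618, 0.336 and 0.495 CPM in NTC IR-2. The insertion 1360{}94 and lncRNA:CR45284, described with its neighbour, were the others. 18SrRNA-Psi:CR45861 rests on dYEATS2-IR replicate 2 and was no longer called in 4 of the 6 leave-one-out fits (highest FDR 0.251).

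**Figure D1:**
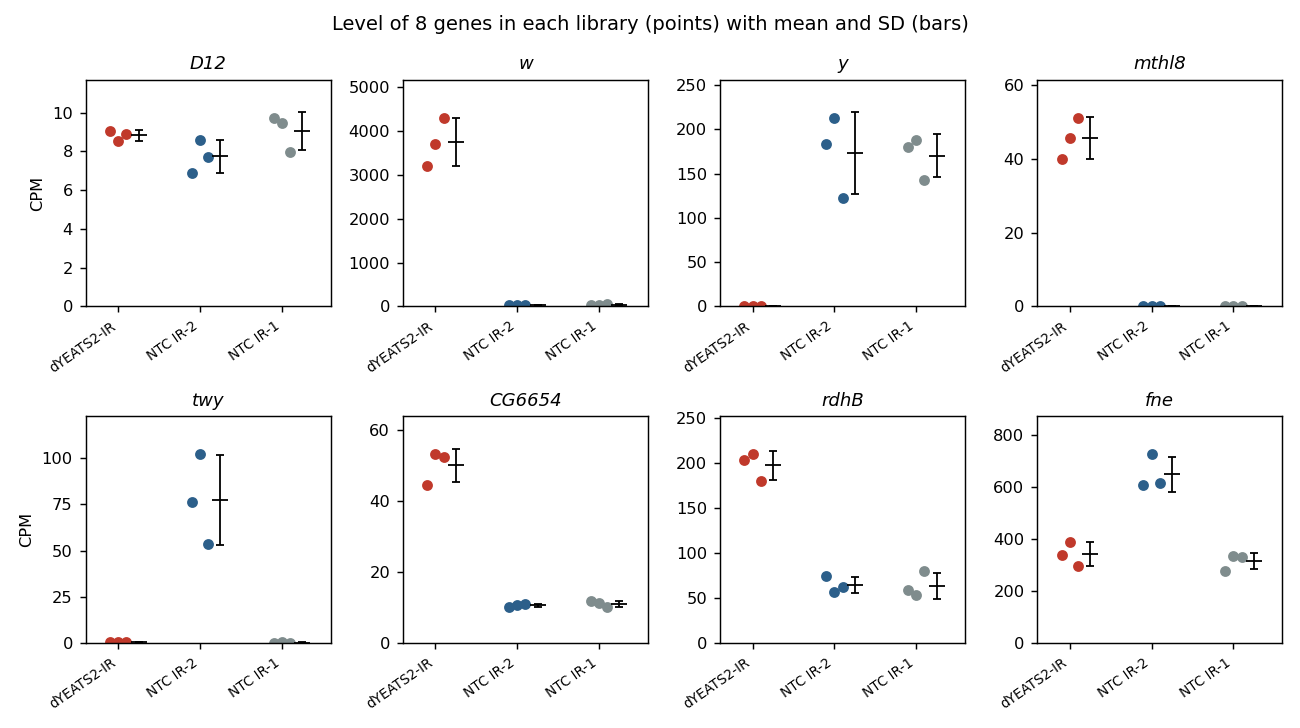
CPM of 8 genes in each of the 3 libraries (points) labelled dYEATS2-IR, NTC IR-2 and NTC IR-1, with the mean and SD of each group (bars). D12 overlaps between groups, w, mthl8, CG6654 and rdhB are high in dYEATS2-IR alone among these 3 groups, y is near 0 in dYEATS2-IR alone, and twy and fne are high in NTC IR-2 alone.

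The largest falls were of 2 kinds by the level in the other control. y (FBgn0004034, X 356509 to 361245), a secreted protein needed for black melanin in the cuticle, had 0.176, 0.371 and 0.421 CPM in dYEATS2-IR against 183, 213 and 123 CPM in NTC IR-2 and 180, 188 and 142 CPM in NTC IR-1. Its log2 fold change against NTC IR-2 was -9.05 (SE 0.452, FDR 1.2e-06). CG11313 was likewise present in both controls, with 3 counts in dYEATS2-IR against 299 in NTC IR-2, a ratio of 90.5 with a 95% counting interval of 30.7 to 441. In contrast, twy (3L 11790212 to 11793283) had 0.644, 0.650 and 0.561 CPM in dYEATS2-IR and 0.213, 0.426 and 0.208 CPM in NTC IR-1, against 76.4, 102 and 53.6 CPM in NTC IR-2 (log2 fold change -6.96, SE 0.362, FDR 1.3e-06). Cyp4p2, a cytochrome P450, had 0.615, 0.464 and 0.589 CPM in dYEATS2-IR and 1.73 to 2.06 CPM in NTC IR-1, against 35.9, 32.4 and 27.2 CPM in NTC IR-2 (log2 fold change -5.83, FDR 1.6e-06). CG15824 followed the same pattern, at 0.850, 1.08 and 0.926 CPM in dYEATS2-IR against 41.8, 35.1 and 17.4 CPM in NTC IR-2.

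The other members of the 12 largest falls had at most 6.18 CPM in any NTC IR-2 library. CG31862 had no count in dYEATS2-IR against 195 counts in NTC IR-2, at least 62.1-fold lower, and its call was lost without dYEATS2-IR replicate 1 or 3 (highest FDR 0.0595). CG16995, CG12995, CG32483 and CG14191 fell with log2 fold changes of -6.001 to -3.95. CG32483 lost its call without dYEATS2-IR replicate 1 and CG14191 without dYEATS2-IR replicate 1 or 3 or NTC IR-2 replicate 2 (highest FDR 0.0707 and 0.0764). Single insertions of the retrotransposons Tirant and HeT-A completed the 12.

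Several called genes lay next to each other. CG43182 (X 353067 to 353317) ended 3191 bases before y, and they moved in opposite directions. CG18095 (2L 14029262 to 14031539) and lncRNA:CR45284 lay 466 bases apart on the minus strand and rose together. CG18095 had 7.68, 9.44 and 5.78 CPM in dYEATS2-IR and 0.618, 0.397 and 0.316 CPM in NTC IR-2, and lncRNA:CR45284 had 6.30, 8.02 and 4.99 CPM in dYEATS2-IR and 0.137, 0.183 and 0.158 CPM in NTC IR-2. Their log2 fold changes were 4.12 (FDR 8.6e-05) and 5.30 (FDR 0.00042). Mocs1 (3L 11070526 to 11073348), a gene of molybdenum cofactor synthesis, fell by 1.08 on the log2 scale (SE 0.119, FDR 0.00055). CG12522, which starts 34886 bases after it, had no count in dYEATS2-IR against 106 counts in NTC IR-2, at least 33.4-fold lower (FDR 0.00027). CG4291 (2L 851251 to 852730) fell by 2.05 (FDR 0.0002) and lay 24441 bases from CG15824. The pairs were chosen after their values were seen, as were CG18095, Mocs1, CG12522 and CG4291.

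Of the 982 called rows that are not insertions, 792 are in none of the gene lists. Of these, 9 chosen after their values were seen passed the test in the same direction against both controls. CG6654 (3R 15211277 to 15213658) had 44.6, 53.2 and 52.4 CPM in dYEATS2-IR, against 10.1, 10.9 and 11.0 CPM in NTC IR-2 and 11.7, 11.2 and 10.1 CPM in NTC IR-1 (log2 fold change against NTC IR-2 2.24, SE 0.102, FDR 7.6e-07). Hexo1, a hexosaminidase, had 69.6, 73.4 and 71.1 CPM in dYEATS2-IR against 35.5, 34.4 and 30.4 CPM in NTC IR-2 (log2 fold change 1.09, FDR 0.0001). numb, an endocytic adaptor that inhibits Notch signalling, had 185, 191 and 171 CPM in dYEATS2-IR against 85.8, 84.7 and 94.1 CPM in NTC IR-2 (log2 fold change 1.05, FDR 0.00025). The groups did not overlap in any of these genes, and each call held whichever of the 6 libraries was left out. The photolyase phr (1.16, FDR 0.00018), the adenylate kinase Adk3 (0.86, FDR 0.0001), CG8757 (2.47, FDR 0.0001) and CG10257 (1.69, FDR 7.2e-05) also rose, with log2 fold changes in parentheses. hzg fell by 1.44 (FDR 0.0001) and the kinetochore gene Mis12 by 1.61 (FDR 0.00021).

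Neuronal genes were lower in the libraries labelled dYEATS2-IR than in NTC IR-2. Of 24 neuronal markers tested, 12 fell and 0 rose, all 24 log2 fold changes were negative, and their median was -0.42 against 0.01 over all rows. The RNA-binding protein fne, a relative of ELAV, had 338, 390 and 298 CPM in dYEATS2-IR against 607, 728 and 616 CPM in NTC IR-2 (log2 fold change -0.93, SE 0.13, FDR 0.003). nrv3, a sodium pump subunit of neurons, fell by 0.81 (FDR 0.0106), the GABA receptor Rdl by 0.87 (FDR 0.0119) and Appl, the fly amyloid precursor protein, by 0.55 (FDR 0.0105). The active zone protein brp had 531, 626 and 513 CPM in dYEATS2-IR and 685, 1039 and 868 CPM in NTC IR-2 (log2 fold change -0.63, FDR 0.0266). nSyb, whose promoter the driver carries, had 1544, 1667 and 1477 CPM in dYEATS2-IR and 2102, 2157 and 1961 CPM in NTC IR-2 (log2 fold change -0.41, FDR 0.0165). For elav the change was -0.36 (FDR 0.0968) and for the sodium channel para -1.22 (FDR 0.131), and neither passed the test. The genes brp, elav and para were added after their values were seen. Apart from fne, the genes named here as fallen lost their call in 2 to 4 of the 6 leave-one-out fits, with a highest FDR of 0.0547 (Appl) to 0.111 (brp).

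Set beside NTC IR-1, the neuronal markers gave another picture. Their median log2 fold change was 0.22 against NTC IR-1, with 1 called higher and 0 lower, and NTC IR-2 itself stood above NTC IR-1 by a median of 0.64. fne had 279, 335 and 331 CPM in NTC IR-1, a range that overlaps that of dYEATS2-IR. Measures of the libraries moved with these differences. Nuclear ribosomal RNA rows took 0.397% to 0.56% of counts in NTC IR-1. Mitochondrial transcripts other than mt:lrRNA took 1.77% to 2.72% in dYEATS2-IR, 3.45% to 4.14% in NTC IR-2 and 1.36% to 2.85% in NTC IR-1. Their part in the result was not tested. Neuronal markers had a median summed exon length of 6741 bases, and long rows, insertions included, fell more often than short ones (described further on). With the trend of fold change on exon length taken off, the median of the neuronal markers was -0.35. The trend was fitted over all rows with a length, insertions included, and the step was added after the values were seen.

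Other lists of synaptic genes showed the same direction. Of 29 synaptic vesicle and active zone genes, 9 fell and 0 rose (median -0.38), among them the synaptotagmins Syt4 and Syt7 and the clathrin adaptor lap. Syt7 had 260, 304 and 261 CPM in dYEATS2-IR against 428, 461 and 455 CPM in NTC IR-2 (log2 fold change -0.71, SE 0.102, FDR 0.0036). Of 10 nicotinic acetylcholine receptor subunits, 4 fell (nAChRalpha4, nAChRalpha5, nAChRalpha7 and nAChRbeta1, with log2 fold changes of -0.75 to -0.56). Of 22 genes of GABA and glutamate signalling, 5 fell, with Rdl, the metabotropic receptors GABA-B-R1 (-0.56, FDR 0.00996) and mGluR (-0.61, FDR 0.0154) and the vesicular glutamate transporter VGlut (-0.44, FDR 0.0268) among them. The acetylcholine genes VAChT (-0.51, FDR 0.0318) and ChAT (-0.43, FDR 0.0445) fell, while Gad1, the enzyme of GABA synthesis, did not pass (-0.30, FDR 0.167). Of 31 potassium and sodium channel genes, 4 fell, all of them potassium channels or regulators: slo (-0.71), SK (-0.63), Elk (-0.52) and qvr (-0.50). Except for Syt7, the falls named here lost their call in 2 to 6 of the 6 leave-one-out fits, with a highest FDR of 0.0587 (GABA-B-R1) to 0.17 (qvr).

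Neuropeptide genes added 7 falls and 1 rise among 43 tested (median -0.43). The median was -0.20 without NTC IR-2 replicate 1, the highest library for this list, and the calls in either direction numbered 3 without dYEATS2-IR replicate 1 and 16 without NTC IR-2 replicate 3. sNPF, short neuropeptide F, had 165, 181 and 167 CPM in dYEATS2-IR against 354, 281 and 257 CPM in NTC IR-2 (log2 fold change -0.80, SE 0.121, FDR 0.0045). Proc, the myotropic peptide proctolin, had 101, 127 and 109 CPM in dYEATS2-IR against 254, 209 and 171 CPM in NTC IR-2 (log2 fold change -0.92, FDR 0.0072). The eclosion hormone Eh (-0.91, FDR 0.0071), the diuretic hormones Dh31 (-0.81, FDR 0.0138) and Dh44 (-0.54, FDR 0.044), the ion transport peptide ITP (-0.53, FDR 0.0207) and the tachykinin Tk (-0.45, FDR 0.0214) fell too. Nplp3 rose (0.98, FDR 0.0494) although its groups overlapped, at 1239, 1177 and 707 CPM in dYEATS2-IR and 419, 445 and 716 CPM in NTC IR-2. The clock neuron peptide Pdf was not called (-0.29, FDR 0.2). The calls of Dh31, Dh44, ITP, Tk and Nplp3 were lost in 1 to 5 of the 6 leave-one-out fits, with a highest FDR of 0.0707 (Dh31) to 0.18 (Nplp3).

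Taken as a union chosen after the values were seen, the markers, vesicle genes, potassium and sodium channels, transmitter receptors and neuropeptides held 145 tested genes. Of these 35 (24.1%) fell and 1 rose, where 4.57% of rows that are not insertions fell. The count was carried by few libraries: 5 genes fell without dYEATS2-IR replicate 1, without replicate 3 there were 6, without NTC IR-2 replicate 2 there were 14, and with only the 6 libraries compared there were 9. fne, Syt7, sNPF, Eh and Proc were called in every fit that left out 1 library.

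**Figure D2:**
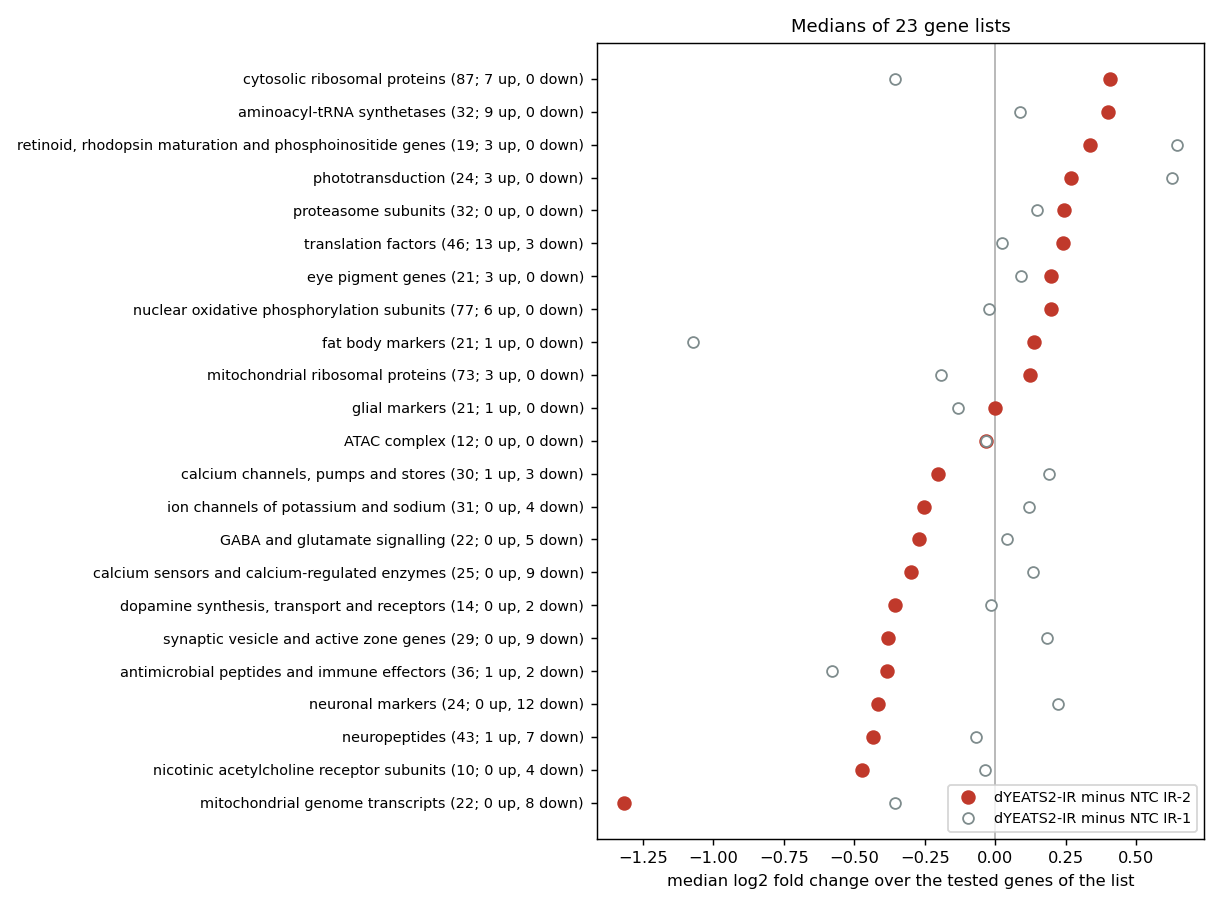
Median log2 fold change over the tested genes of 23 lists, dYEATS2-IR minus NTC IR-2 (filled) and dYEATS2-IR minus NTC IR-1 (open). In brackets stand the genes tested and those called against NTC IR-2. Neuronal lists lie between -0.47 and -0.25 against NTC IR-2 and between -0.07 and 0.22 against NTC IR-1. The contrasts share the dYEATS2-IR libraries.

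Genes of calcium signalling that passed the test were mostly lower in the libraries labelled dYEATS2-IR. Of 25 calcium sensors and calcium-regulated enzymes, 9 fell and 0 rose (median -0.30). This is 36% called, against 8.56% of all rows that are not insertions. Cam, calmodulin, had 3797, 3834 and 3226 CPM in dYEATS2-IR against 4825, 5660 and 5734 CPM in NTC IR-2 (log2 fold change -0.58, SE 0.107, FDR 0.00996). CaMKII, the kinase that calmodulin activates, had 642, 722 and 542 CPM in dYEATS2-IR and 1059, 1198 and 1272 CPM in NTC IR-2 (log2 fold change -0.89, SE 0.172, FDR 0.0111). The neuronal calcium sensor Frq1 (-0.68, FDR 0.0123), the calcineurin subunit CanB2 (-0.37, FDR 0.0175) and the calcium buffer Cbp53E (-0.50, FDR 0.0299) also fell. Without dYEATS2-IR replicate 3, 1 of the 9 was still called, and against NTC IR-1 the list had 2 genes higher and 0 lower. Of 30 calcium channels, pumps and store genes, 3 fell and 1 rose (13.3% called, not far above the share of all rows). Without dYEATS2-IR replicate 3 this list had 1 call, and against NTC IR-1 it had 3 genes higher and 0 lower. The falls were the presynaptic channel cac (-0.60, FDR 0.0369), the secretory pathway pump SPoCk (-0.51, FDR 0.0102) and MCU, the pore of the mitochondrial uniporter (-0.43, FDR 0.0266). The store genes did not pass: SERCA was at 0.11 (FDR 0.762), RyR at 0.05 (FDR 0.872), Itpr at -0.28 (FDR 0.131) and Stim at -0.23 (FDR 0.103). The rise was trpl, a channel of photoreceptors. Of the calls named here, those of Cam, CaMKII, Frq1, CanB2, Cbp53E, cac, SPoCk and MCU were lost in 1 to 4 of the 6 leave-one-out fits, with a highest FDR of 0.0529 (SPoCk) to 0.156 (cac).

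Few genes of the monoamine systems passed the test, with shares called of 7.69% to 14.3% in the lists of this paragraph, near the 8.56% of all rows that are not insertions. Of 14 genes of dopamine synthesis, transport and reception, 2 fell. Ddc, dopa decarboxylase, had 186, 230 and 198 CPM in dYEATS2-IR against 343, 317 and 297 CPM in NTC IR-2 (log2 fold change -0.64, SE 0.131, FDR 0.014). The receptor Dop2R had 46.8, 57.9 and 47.3 CPM in dYEATS2-IR and 64.0, 68.6 and 69.0 CPM in NTC IR-2 (log2 fold change -0.41, FDR 0.0343). Without dYEATS2-IR replicate 1 or 3 neither was called (highest FDR 0.0872 for Ddc and 0.137 for Dop2R), and against NTC IR-1 they had log2 fold changes of 0.08 and -0.07. ple, tyrosine hydroxylase, the rate-limiting enzyme, had 157, 141 and 90.4 CPM in dYEATS2-IR and 101, 98.8 and 391 CPM in NTC IR-2 (log2 fold change -0.60, FDR 0.453). DAT, Vmat and Dop1R1 had log2 fold changes of -0.38 to -0.16 and did not pass. Among 13 fly orthologues of Parkinson disease genes, Pink1, a mitochondrial kinase, rose with 153, 138 and 146 CPM in dYEATS2-IR against 109, 118 and 90.01 CPM in NTC IR-2 (log2 fold change 0.46, FDR 0.0286). Its call was lost in 3 of the 6 leave-one-out fits (highest FDR 0.113). Its partner park was at 0.24 (FDR 0.434). Of 15 serotonin, octopamine and tyramine genes, 2 fell: the octopamine receptor Octbeta2R (-0.67, FDR 0.00996) and Tbh, the enzyme of octopamine synthesis (-0.40, FDR 0.0291). Octbeta2R lost its call in 2 of the 6 leave-one-out fits and Tbh in 5.

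Some genes regulated by neuronal activity or steroid hormone and some of the insulin pathway fell. Shares called were 28.6% of activity-regulated factors, 22.2% of ecdysone response, 15% of insulin pathway and 12.5% of clock genes. Of all rows that are not insertions 8.56% were called. Without dYEATS2-IR replicate 1 the activity, ecdysone and clock lists had 0 calls and the insulin list 1. Hr38, a nuclear receptor induced by activity, had 23.7, 35.4 and 37.6 CPM in dYEATS2-IR against 126, 423 and 53.7 CPM in NTC IR-2 (log2 fold change -2.64, SE 0.579, FDR 0.0182). The NTC IR-2 libraries spread widely, and the call was lost whichever dYEATS2-IR library was left out (highest FDR 0.0868). CrebA fell by 0.58 (FDR 0.0136), and the other 5 of 7 activity-regulated factors were not called. Of 18 ecdysone response genes, EcR (-0.39), Eip75B (-0.61) and ftz-f1 (-0.33) fell and ImpE1 (1.76) rose. Of 20 insulin pathway genes 3 fell, the kinases S6k (-0.62, FDR 0.0383) and Akt (-0.32, FDR 0.0401) among them. EcR, Eip75B, ftz-f1, ImpE1, CrebA, S6k and Akt lost their call in 1 to 5 of the leave-one-out fits, with a highest FDR of 0.0518 (Eip75B) to 0.17 (EcR). Of 16 clock genes, sgg fell (-0.41) and jet rose (0.51), calls lost in 3 and 5 of the 6 leave-one-out fits, and the oscillating genes per and tim varied among the NTC IR-2 libraries, with 43.0, 139 and 59.6 CPM of per.

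A minority of the genes of translation passed the test, and most of those were higher in the libraries labelled dYEATS2-IR. Of 46 translation factors, 13 rose and 3 fell (median 0.24), and against NTC IR-1 0 were called (median 0.02). The rises were mainly subunits of eIF3, the scaffold of the initiation complex: 8 of 13 eIF3 genes tested rose and 12 of 13 log2 fold changes were positive, a grouping made after the values were seen. Against NTC IR-1 0 of the 13 were called (median 0.08). eIF3a had 232, 224 and 246 CPM in dYEATS2-IR against 126, 174 and 135 CPM in NTC IR-2 (log2 fold change 0.69, SE 0.115, FDR 0.0065). The elongation factor eEF2 had 2176, 1852 and 2117 CPM in dYEATS2-IR and 1280, 1477 and 1281 CPM in NTC IR-2 (log2 fold change 0.61, FDR 0.0103). eIF2Bepsilon, of the exchange factor that recharges eIF2, rose by 0.58 (FDR 0.0063), and the helicase eIF4A did not change detectably (0.02, FDR 0.92). The falls were eIF4EHP, a cap-binding repressor of translation (-0.88, FDR 0.0045), eIF4H1 (-0.57, FDR 0.0118) and eIF5. In the fits that left out 1 library, eEF2 and eIF4H1 each lost their call in 1 (highest FDR 0.0569 and 0.0662).

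Of 32 aminoacyl-tRNA synthetases, which charge tRNAs with amino acids, 9 rose and 0 fell, and all 32 log2 fold changes were positive (median 0.40). AsnRS had 93.6, 88.4 and 88.9 CPM in dYEATS2-IR against 56.7, 69.3 and 51.0 CPM in NTC IR-2 (log2 fold change 0.61, SE 0.113, FDR 0.00996). GlnRS (0.68), TyrRS (0.56) and the mitochondrial PheRS-m (0.56) were among the rest. All 87 cytosolic ribosomal protein genes had positive log2 fold changes (median 0.41), but only 7 were called. RpS9 had 358, 291 and 404 CPM in dYEATS2-IR against 241, 179 and 148 CPM in NTC IR-2 (log2 fold change 0.89, FDR 0.0146), and RpS18, RpL35A and RpS5a rose by 0.55 to 0.68. The summed level of the 87 genes was 27190 to 35260 CPM in dYEATS2-IR and 19240 to 29330 CPM in NTC IR-2, so the groups overlapped, and NTC IR-2 replicate 1 was the highest of its group. Without that library 46 of the 87 were called, and without dYEATS2-IR replicate 1 none was. Against NTC IR-1 the direction of the ribosomal protein median was the reverse, -0.36, with 3 genes lower and 0 higher, whereas the synthetases were at 0.09. RpS9, RpS18, RpL35A, RpS5a, GlnRS, TyrRS and PheRS-m lost their call in 2 to 4 of the 6 leave-one-out fits, with a highest FDR of 0.054 (PheRS-m) to 0.131 (RpS5a).

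Taking the 165 genes of these 3 lists, 29 (17.6%) rose and 3 fell, where 3.99% of rows that are not insertions rose. The count of rises was 4 without dYEATS2-IR replicate 1, 4 without replicate 3, 13 without NTC IR-2 replicate 2, 8 without NTC IR-2 replicate 3 and 66 without NTC IR-2 replicate 1. eIF3a, eIF2Bepsilon, eIF4EHP and AsnRS were called in every one of these fits. Of 73 mitochondrial ribosomal proteins 3 rose, and of 23 nucleolar and ribosome biogenesis genes 1 rose (Non1, 0.84, FDR 0.0133, lost in 2 of the 6 leave-one-out fits). Of 32 proteasome subunits 0 were called, with a median of 0.24 that rests on single libraries. It was -0.0002 without NTC IR-2 replicate 1 and 0.84 without NTC IR-2 replicate 3, and the summed level was 2495 to 3574 CPM in dYEATS2-IR, within the 1585 to 4263 CPM of NTC IR-2.

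Transcripts of the mitochondrial genome were lower in dYEATS2-IR. Of 22 tested, 8 fell and 0 rose (median -1.32). mt:ND5, a complex I subunit, had 394, 296 and 219 CPM in dYEATS2-IR against 1097, 1655 and 1471 CPM in NTC IR-2 (log2 fold change -2.22, SE 0.288, FDR 0.0019). mt:ND1 had 658, 666 and 489 CPM in dYEATS2-IR against 1909, 1700 and 1680 CPM in NTC IR-2 (log2 fold change -1.54, FDR 0.0066). mt:srRNA, the small ribosomal RNA, had 20.8, 27.2 and 6.535 CPM in dYEATS2-IR against 260, 138 and 170 CPM in NTC IR-2 (log2 fold change -3.38, FDR 0.0071). These 3 were called whichever library was left out. mt:ND3 (-2.15), mt:ATPase6 (-1.69), mt:Cyt-b (-1.32) and mt:lrRNA (-0.92) fell too, with calls lost in 1 to 5 of the 6 leave-one-out fits (highest FDR 0.059 for mt:ND3 and 0.138 for mt:lrRNA), and mt:CoI did not pass (-0.73, FDR 0.152). Without dYEATS2-IR replicate 3 the count was 3, and without replicate 1 it was 4. NTC IR-1 libraries lay lower as well, with 179, 279 and 399 CPM of mt:ND5. Libraries were made by selection of polyadenylated RNA, and the part of that step in the mitochondrial rows was not tested.

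Nuclear genes of the same respiratory complexes did not follow. Of 77 nuclear subunits of oxidative phosphorylation, 6 rose and 0 fell (median 0.20). The share called, 7.79%, was below the 8.56% of all rows that are not insertions. Without dYEATS2-IR replicate 1 the list had 1 call, and its median against NTC IR-1 was -0.02. ND-39, a complex I subunit, had 315, 254 and 302 CPM in dYEATS2-IR against 200, 193 and 151 CPM in NTC IR-2 (log2 fold change 0.68, SE 0.126, FDR 0.0102). ND-42 (0.44) and ND-ASHI (0.47) rose in the same complex. Of 20 citric acid cycle genes only Idh rose (0.58, FDR 0.0402). Of 15 glycolysis genes, Pgk and Gpo1 rose by 0.35 each and Ald1, an aldolase, fell by 0.52. ND-42, ND-ASHI, Idh, Pgk, Gpo1 and Ald1 lost their call in 4 to 6 of the 6 leave-one-out fits, with a highest FDR of 0.0899 (ND-42) to 0.188 (Ald1). Nmdmc, a mitochondrial enzyme of folate metabolism chosen after its values were seen, had 60.4, 46.9 and 71.8 CPM in dYEATS2-IR against 16.3, 20.3 and 18.1 CPM in NTC IR-2 and 45.6, 48.5 and 65.4 CPM in NTC IR-1 (log2 fold change against NTC IR-2 1.71, FDR 0.0014).

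Nuclear ribosomal RNA was higher in the libraries labelled dYEATS2-IR than in NTC IR-2, but not than in NTC IR-1. All 20 rows tested, a list added after their values were seen, had positive log2 fold changes and 13 were called (median 2.61). Their summed level was 2310 to 8049 CPM in dYEATS2-IR and 391 to 1125 CPM in NTC IR-2. Against NTC IR-1 their median was -0.18, with 0 called in either direction. NTC IR-2 stood below NTC IR-1 by a median log2 fold change of -2.66, with 14 rows lower. 28SrRNA-Psi:CR45851 had 250, 726 and 227.2 CPM in dYEATS2-IR against 55.8, 75.4 and 31.0 CPM in NTC IR-2 (log2 fold change 2.89, SE 0.46, FDR 0.0055). The precursor row pre-rRNA:CR45856 rose by 2.60 (FDR 0.00996). dYEATS2-IR replicate 2 was the highest library of its group in both of these rows, with 726 CPM in the first, and 9 rows of the list were called without it. 7SLRNA:CR32864, the RNA of the signal recognition particle, rose by 3.24 (FDR 0.004) and snRNA:U2:34ABa, a copy of the spliceosomal U2 RNA, by 4.09 (FDR 0.003). These RNAs lack the long poly(A) tails by which mRNA is selected, and the part of that selection in their counts was not tested. Repeated ribosomal genes are near-identical, so their rows may not be separate observations. How their reads were shared is not given in the sources used here.

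**Figure D3:**
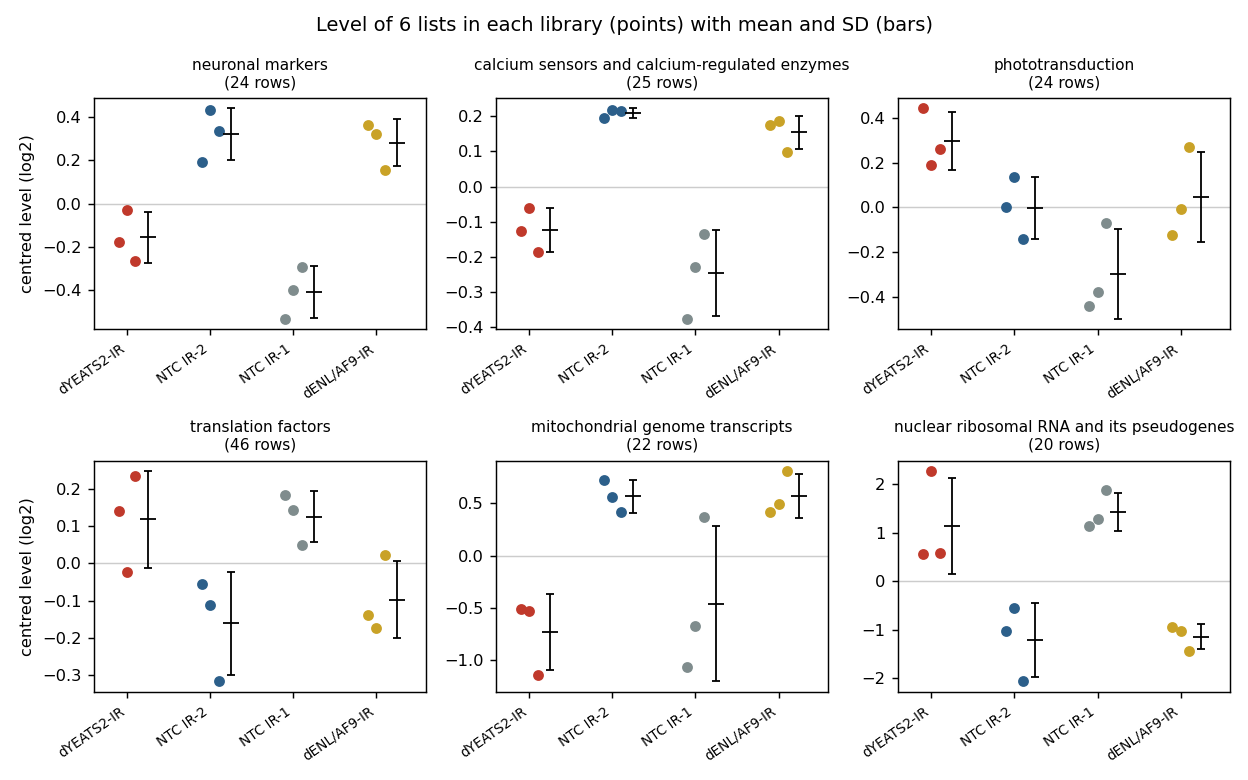
Level of 6 lists in each library: the median over a list's rows of log2(CPM + 0.1) minus the row's mean over all 12 libraries, with the mean and SD of each group. For neuronal markers dYEATS2-IR lies at -0.26 to -0.03 and NTC IR-2 at 0.19 to 0.43. For nuclear ribosomal RNA dYEATS2-IR lies at 0.55 to 2.27 and NTC IR-2 at -2.07 to -0.56.

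A few genes of the eye passed the test, all of them higher in the libraries labelled dYEATS2-IR. In the lists of this paragraph 12.5% to 15.8% were called, not far above the 8.56% of all rows that are not insertions. Of 24 phototransduction genes, 3 rose and 0 fell (median 0.27), with 1 called without dYEATS2-IR replicate 1 and a median of 0.14 without NTC IR-2 replicate 3. Of the retinoid list below, 1 was called without dYEATS2-IR replicate 1. trpl, a channel opened by light, had 2123, 1914 and 1884 CPM in dYEATS2-IR against 1161, 1316 and 1086 CPM in NTC IR-2 (log2 fold change 0.73, SE 0.121, FDR 0.0063). The ultraviolet opsin Rh3 rose by 0.55 (FDR 0.0392) and the arrestin Arr2 by 0.66 (FDR 0.0438), and these calls were lost in 5 and 6 of the 6 leave-one-out fits (highest FDR 0.15 and 0.144). The main opsin ninaE (0.26, FDR 0.565), the channel trp (0.28, FDR 0.407) and the phospholipase norpA (-0.08, FDR 0.788) did not pass. Of 19 genes of retinoid metabolism, rhodopsin maturation and phosphoinositides, 3 rose. rdhB, the retinol dehydrogenase that makes the chromophore, had 203, 210 and 180 CPM in dYEATS2-IR, against 74.4, 56.7 and 62.4 CPM in NTC IR-2 and 58.5, 52.9 and 79.9 CPM in NTC IR-1 (log2 fold change against NTC IR-2 1.61, SE 0.154, FDR 0.00018). ninaG, an oxidoreductase of the same pathway, rose by 0.85 (FDR 0.0121), and retinin, a protein of the corneal lens, by 1.10 (FDR 0.0154). Of 21 eye pigment genes, w, Hn (phenylalanine hydroxylase, 0.91, FDR 0.0061) and kar (0.44, FDR 0.0416) rose. The calls of ninaG, retinin and kar were lost in 1, 2 and 5 of the 6 leave-one-out fits. The partners of the w transporter did not pass: st was at 0.40 (FDR 0.196) and bw at 0.37 (FDR 0.182). The enzyme gene v, another marker of fly stocks, had 3.54, 2.17 and 6.40 CPM in dYEATS2-IR and 12.1, 10.5 and 5.50 CPM in NTC IR-2 (log2 fold change -1.20, FDR 0.104).

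Few markers of the other cell types of the head passed the test. Shares called were 4.76% of glial, 4.76% of fat body, 14.3% of hemocyte and 3.57% of muscle genes. Of all rows that are not insertions 8.56% were called. Of 21 glial markers 1 rose and 0 fell (median 0.00), and the glial master gene repo was at 0.04 (FDR 0.887). The rise was alrm, a gene of astrocyte-like glia, with 19.3, 12.9 and 17.7 CPM in dYEATS2-IR against 7.58, 3.26 and 3.44 CPM in NTC IR-2 and 34.9, 35.02 and 25.9 CPM in NTC IR-1 (log2 fold change against NTC IR-2 1.81, FDR 0.0061). Of 21 fat body markers 1 rose, fbp, an enzyme of gluconeogenesis (1.15, FDR 0.0096), and the summed level of the list was 3730 to 4142 CPM in dYEATS2-IR and 3198 to 3477 CPM in NTC IR-2. Of 14 hemocyte markers NimB4 rose (1.89, FDR 0.0071) and the prophenoloxidase PPO2 fell (-0.67, FDR 0.0417, lost in 5 of the 6 leave-one-out fits). The hemocyte list had a median of 0.78 with 13 of 14 log2 fold changes positive, and summed to 374 to 471 CPM in dYEATS2-IR and 350 to 390 CPM in NTC IR-2. Against NTC IR-1 the dYEATS2-IR medians were negative, at -0.31 for hemocyte and -1.07 for fat body markers. NTC IR-2 itself stood below NTC IR-1, with medians of -1.09 for hemocyte markers (5 lower, 0 higher) and -1.32 for fat body markers (9 lower, 0 higher). Of 28 muscle genes 1 rose. The part of these cell types in the other results was not tested, and the calls of alrm, fbp and NimB4 held in each of the 6 leave-one-out fits.

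Of 36 antimicrobial peptides and immune effectors 8.33% were called, near the 8.56% of all rows that are not insertions. The diptericin DptA (-2.14, FDR 0.0305) and the cecropin CecA1 fell and BomS4 (1.34, FDR 0.0365) rose, with levels under 6 CPM in each of these libraries. These 3 calls were lost in 4 or 5 of the 6 leave-one-out fits, with a highest FDR of 0.113 (DptA) to 0.156 (BomS4). CecA1 rests on 3 counts in dYEATS2-IR and 127 in NTC IR-2, a ratio of 38.4 with a 95% counting interval of 12.9 to 189. Of 6 Hsp70 copies 0 were called (median -2.29), and the libraries of a group varied. Hsp70Aa had 6.03, 9.56 and 15.99 CPM in dYEATS2-IR and 27.0, 313 and 22.0 CPM in NTC IR-2. These copies are near-identical. The shares called among cytochrome P450 genes (7.5%), cuticle proteins (6.56%) and odorant-binding proteins (5.88%) were below the 8.56% of all rows that are not insertions. Of 80 cytochrome P450 genes 2 rose and 4 fell, with Cyp6a8 (-0.98) and Cyp28a5 (-1.19) among the falls. The glutathione transferase GstS1 rose by 1.15 (FDR 0.0094), with 132, 174 and 172 CPM in dYEATS2-IR and 58.0, 59.6 and 97.7 CPM in NTC IR-2. Of 21 UDP-glycosyltransferases 3 rose and 0 fell (14.3% called), and 0 were called without dYEATS2-IR replicate 1. Of 61 cuticle protein genes, 1 rose and 3 fell, among them Cpr73D with 9.87, 11.7 and 10.2 CPM in dYEATS2-IR against 38.6, 28.1 and 25.8 CPM in NTC IR-2 (log2 fold change -1.54, FDR 0.00039). Of 34 odorant-binding proteins, Obp56a (-0.87) and Obp99a (-3.61) fell, the last with 0, 0.341 and 0 CPM in dYEATS2-IR and 2.02, 1.04 and 1.07 CPM in NTC IR-2. These Obp calls were lost in 5 and 3 of the 6 leave-one-out fits.

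Some genes of other tissues were read at low levels. Of 38 testis and accessory gland genes 8 rose and 0 fell (21.1% called, against 8.56% of all rows that are not insertions). The count filter used the libraries of all groups, and 11 of the 38 had no count in NTC IR-2. The share called is therefore no measure of a change in this list. Against NTC IR-1 the median of the list was -1.10, with 0 genes higher and 2 lower. NTC IR-2 itself stood below NTC IR-1 by a median log2 fold change of -4.55, with 23 genes lower. There were 2 calls without dYEATS2-IR replicate 1 and 18 without NTC IR-2 replicate 1. Sfp60F, a seminal fluid protein, had 0.674, 0.433 and 0.477 CPM in dYEATS2-IR and no count in NTC IR-2, at least 19.8-fold higher (FDR 0.0132, lost in 1 of the 6 leave-one-out fits), against 1.97, 1.43 and 2.23 CPM in NTC IR-1. Mst84Da had 0.439, 1.73 and 0.589 CPM in dYEATS2-IR and 0, 0 and 0.0396 CPM in NTC IR-2. The fitted median of the list was 3.43, and 2.60 with the 12 rows that had no count in 1 of the groups at their bound. The fitted median was 2.77 to 5.19 over the leave-one-out fits. Its summed level was 29.0 to 40.9 CPM in dYEATS2-IR and 20.8 to 28.8 CPM in NTC IR-2. Of the yolk protein genes, Yp3 rose, with 31.6, 26.6 and 34.7 CPM in dYEATS2-IR against 19.6, 17.2 and 10.9 CPM in NTC IR-2 (log2 fold change 0.97, FDR 0.0334), and lost its call in 4 of the 6 leave-one-out fits (highest FDR 0.112). Yp1 and Yp2 had at most 1.12 CPM in each of these 6 libraries, whereas NTC IR-1 had 843, 798 and 587 CPM of Yp1.

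The position of genes and the length of rows went with the calls. On chromosome 4, the small and largely heterochromatic autosome, 24 of 105 genes tested fell (22.9%) and 0 rose, the median log2 fold change was -0.29, and 17 values were positive. On the other large arms 7.87% to 9.64% of genes were called, in both directions. The 24 included CaMKII, Syt7 and mGluR, the transcription factors pan, NfI, ey, toy and pho, and the guidance receptors PlexA and Eph. pan, the TCF factor of Wnt signalling, had 277, 321 and 260 CPM in dYEATS2-IR against 362, 559 and 517 CPM in NTC IR-2 (log2 fold change -0.75, FDR 0.0169). Pur-alpha had 346, 397 and 302 CPM in dYEATS2-IR against 544, 598 and 750 CPM in NTC IR-2 (log2 fold change -0.86, FDR 0.0142), and toy, a Pax6 gene, fell by 0.42 (FDR 0.0119). The count was 4 without dYEATS2-IR replicate 1, 7 without replicate 3, 15 without NTC IR-2 replicate 2, 14 without NTC IR-2 replicate 3 and 35 without NTC IR-2 replicate 1. The median of the 105 genes against NTC IR-1 was 0.00, with 0 higher and 2 lower. The arm was singled out after its values were seen, and several of its called genes are neuronal.

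All rows with a length, insertions included, were divided in 5 classes of equal size by the summed length of their exons. Of the shortest class 2.49% fell and of the longest 11.3%, which holds 4406 to 71820 bases. Insertions had a median length of 4698.5 bases and 12.5% of them fell, so the longest class is not made of genes alone. The classes were not made without insertions, and their part in the difference was not tested. The share that rose was 3.25% in the shortest class, 5.21% in the middle one and 2.57% in the longest. Median log2 fold changes were 0.01, 0.10, 0.09, -0.01 and -0.13 from short to long. Against NTC IR-1 the medians ran the other way, at -0.24, -0.08, -0.02, 0.07 and 0.12, and those of NTC IR-2 minus NTC IR-1 ran from -0.22 in the shortest class to 0.24 in the longest. Long genes of the nervous system were among the falls, such as the splicing factor Rbfox1 (-0.69, FDR 0.0045), the RNA-binding gene bru3 (-0.83, FDR 0.0049) and dnc, the cAMP phosphodiesterase of olfactory learning (-0.55, FDR 0.0117, lost in 2 of the 6 leave-one-out fits), all chosen after their values were seen.

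**Figure D4:**
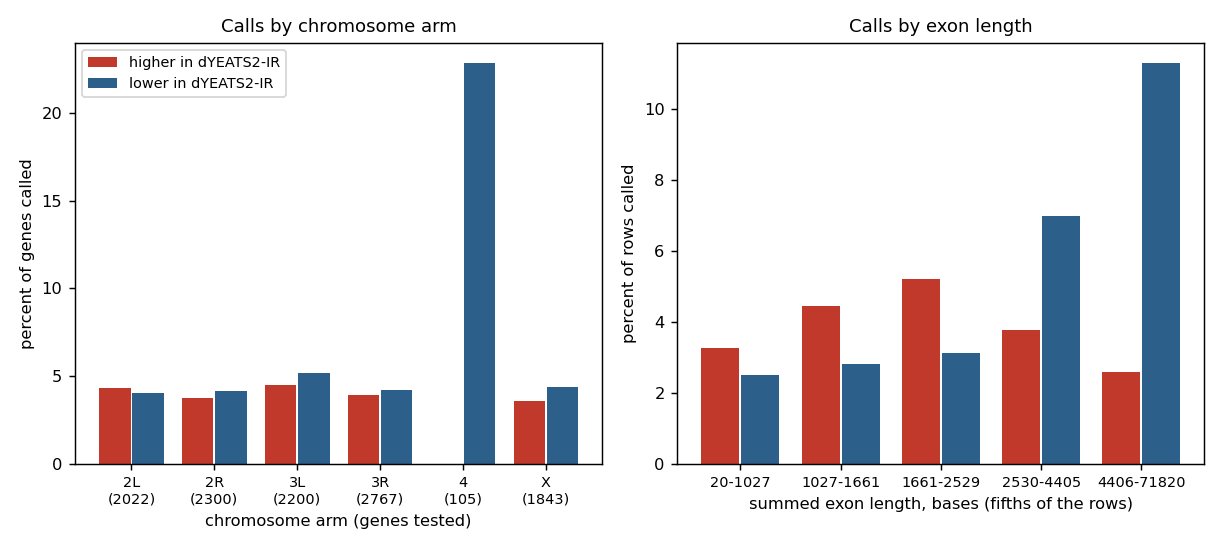
Percent of genes or rows called higher or lower in dYEATS2-IR than in NTC IR-2. Left, genes by chromosome arm, insertions left out. Right, all rows with a length, insertions included, by 5 classes of summed exon length. Chromosome 4 has 22.9% of genes lower and 0 higher, and the share of rows that fell is 11.3% in the longest class and 2.49% in the shortest.

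Transposable element insertions were called more often than other rows and mostly lower. Of 1194 insertions tested, 149 (12.5%) fell and 30 (2.51%) rose, with a median log2 fold change of -0.33. The families were described by the summed level of all their insertions in the table, since reads of near-identical copies may be shared and their handling is not given in the sources used here. The LTR retrotransposon mdg3 rose, with 34.7, 37.95 and 30.7 CPM in dYEATS2-IR against 3.81, 3.94 and 3.96 CPM in NTC IR-2, and 10 of its 11 tested insertions were called higher. Tabor, another LTR element, had 8.67, 6.81 and 5.50 CPM in dYEATS2-IR against 1.89, 0.976 and 1.35 CPM in NTC IR-2, with 5 of 5 insertions higher. For both families NTC IR-1 was at the low level too, with 3.60 to 4.11 CPM of mdg3.

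The falls spread over more families. diver, an LTR element, had 1.52, 1.83 and 1.66 CPM in dYEATS2-IR against 8.06, 7.05 and 8.76 CPM in NTC IR-2, and 10 of 10 insertions were lower. The DNA transposon hobo, listed as H, had 27.3, 29.8 and 35.8 CPM in dYEATS2-IR against 127, 78.1 and 72.2 CPM in NTC IR-2, with 16 of 24 insertions lower. opus had 65.3, 89.8 and 82.2 CPM in dYEATS2-IR against 210, 162 and 114 CPM in NTC IR-2, with 25 of 36 lower. In all of these families the groups did not overlap, but the families were chosen after their values were seen. Lack of overlap was not particular to them. The summed level of 1360 was 53.2 to 64.1 CPM in dYEATS2-IR and 80.6 to 102 CPM in NTC IR-2. That of roo was 35.4 to 42.8 CPM in dYEATS2-IR and 52.7 to 55.2 CPM in NTC IR-2. Stalker2 (7 of 11 lower), HMS-Beagle (9 of 12) and the telomeric element HeT-A (8 of 19) also had lower summed levels in every dYEATS2-IR library than in any NTC IR-2 library. Other families had few or no called insertions: 0 of 69 for Doc, 0 of 41 for jockey, and 2 of 33 for copia, the most highly read family here. The summed level of copia was still lower in every dYEATS2-IR library (601 to 673 CPM) than in any NTC IR-2 library (698 to 861 CPM). Insertions lower numbered 50 without dYEATS2-IR replicate 1, 59 without replicate 3, 84 without NTC IR-2 replicate 2 and 56 with only the 6 libraries compared. Among 16 genes of small RNA pathways 12.5% were called, against 8.56% of all rows that are not insertions. Dcr-1 rose (0.51, FDR 0.0289) and AGO1 fell (-0.45, FDR 0.0456), with calls lost in 4 and 5 of the 6 leave-one-out fits.

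**Figure D5:**
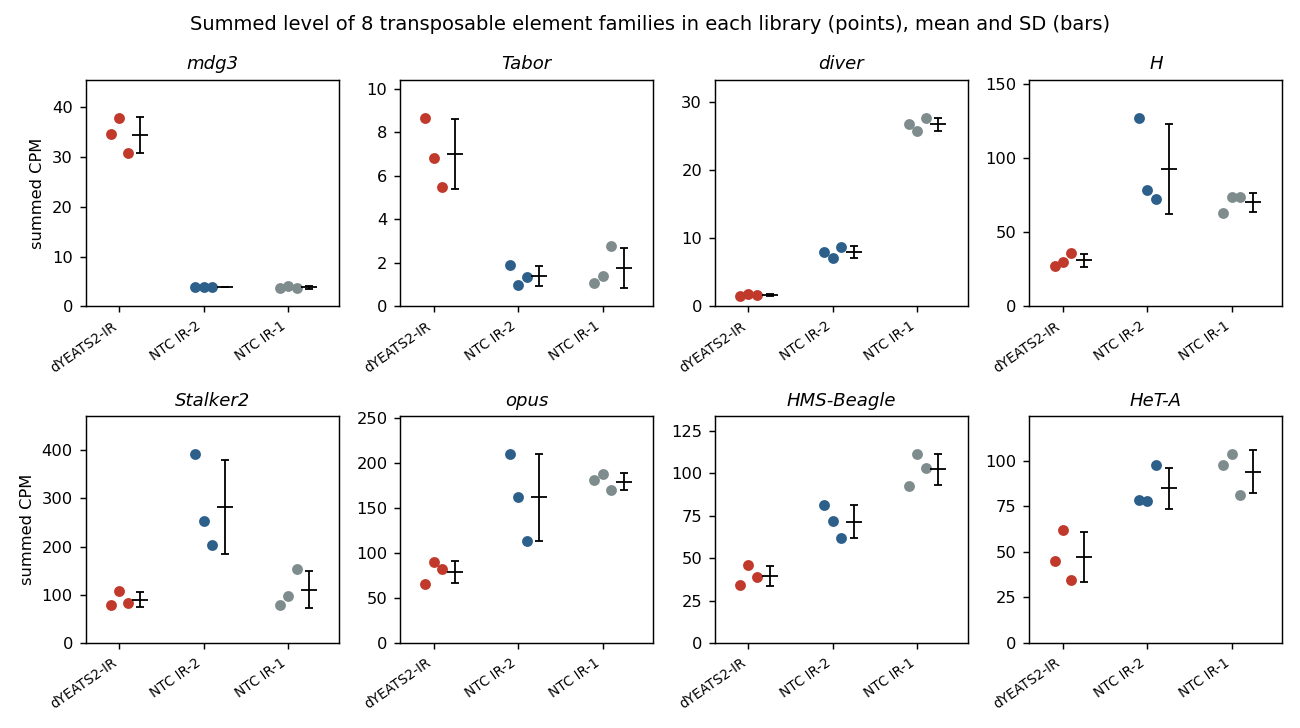
Summed CPM of all insertions of 8 transposable element families in each library labelled dYEATS2-IR, NTC IR-2 and NTC IR-1 (points), with the mean and SD of each group (bars). mdg3 and Tabor are higher in the 3 dYEATS2-IR libraries than in every control library, and diver, H, opus, HMS-Beagle and HeT-A are lower than in every control library, while for Stalker2 dYEATS2-IR overlaps NTC IR-1.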

How the data were processed

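Reads were counted per gene and per transposable element insertion by the authors, and the deposited table of raw counts was used as it stands. A second deposited table holds a signal, the counts divided by a size factor per library, and it was used only to compare library names. Each of its columns equals a column of the count table that carries another group name, in 100% of rows. Libraries were named here by the count table. Per the labels' protocols, polyadenylated RNA was taken from pools of 50 heads with a stranded kit. The submitters' processing notes name FastQC 0.12.0, Trim Galore 0.6.5, HISAT2, SAMtools, UMI-tools, Picard and DESeq2 and the builds BDGP6 and dm6. The counting program, its treatment of reads that match several copies and its use of strand are not given in the sources used here.

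From the counts, edgeR 4.0.16 (limma 3.58.1, R 4.3.3) fitted a mean per group over all 12 libraries, with TMM scaling and filterByExpr, leaving 12661 rows and 8 residual degrees of freedom. dYEATS2-IR minus NTC IR-2 was tested with the quasi-likelihood F test, p-values were adjusted by Benjamini-Hochberg over all rows, and rows with an FDR below 0.05 were called. SEs were obtained from the fold change and the F statistic. Where a group had no count, the fold is a bound against 3 counts over that group. Intervals of count ratios are exact and cover counting error only. The procedure was tested on simulated data.

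Named genes were D12, ear and the ATAC complex, the 12 largest rises and 12 largest falls among called rows without overlap and with 50 or more counts on average in 1 group, up to 4 called members per list with the smallest FDR, and w, y, v and the yolk genes. All other genes named, including those that did not pass the test, were chosen after their values were seen. The members and lists were chosen with earlier results of these data known. Coordinates and overlaps come from the Ensembl 115 annotation of BDGP6.54. Alternatives were DESeq2 size factors, the DESeq2 1.42.0 Wald test, other count filters, a fit of the 6 libraries alone, a replicate block, leaving out each library, leaving out mitochondrial ribosomal RNA and the names of the normalized table.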

Additional observations from a re-analysis of the deposited data

How the results depend on the processing

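The number of called rows depended on the fit, and the cause was not tested. Against 1161 rows (488 higher, 673 lower), the fit of only the 6 libraries compared called 394 rows (171 higher, 223 lower), of which 366 were among the 1161. The DESeq2 Wald test called 1876 rows (831 higher, 1045 lower), of which 1156 were among them. With no filter beyond 1 count, 440 rows were lower. Leaving out 1 library at a time gave 331 to 1376 called rows, 164 to 641 higher and 167 to 735 lower. Under the names of the normalized table, which set the libraries labelled dENL/AF9-IR here against those labelled dYEATS2-IR here, 625 rows were called, 247 of them lower, and the log2 fold change of D12 was -0.19 (FDR 0.469). DESeq2 size factors, a mean count of at least 10 and leaving out mitochondrial ribosomal RNA gave 1144 to 1168 called rows. Over the 199 called genes and insertions examined singly and up to 13 alternatives, 1942 of 2574 results stayed called in the same direction, 632 lost the call and 0 changed direction. A change of direction was hardly possible, since these rows were chosen as called and nearly all called rows had no overlap between the groups.

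Libraries with the same replicate number did not deviate together: the correlations of their deviations from the group means were -0.0807, -0.0761 and -0.177, so the numbers were not taken as pairs. With the replicate number as a block, 856 rows were called, 819 of them among the 1161.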
